A study of Mus musculus with 22 samples.

Results

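The difference between the response of knockout soleus to triiodothyronine (T3) and that of wild-type soleus was measured gene by gene. It was the log2 change from vehicle to T3 in mice labelled TRa1 KO (knockout for thyroid hormone receptor alpha 1) minus the same change in mice labelled WT. A positive difference means that the KO change lies above the WT change, so that a gene rose more or fell less in KO. All 22 libraries of the series entered it by their genotype and treatment labels: 5 WT vehicle, 6 WT T3, 4 KO vehicle and 7 KO T3. Of the 55487 genes listed, 15082 had enough counts to be tested. The animals were male, the tissue was the soleus, a lower-leg muscle of slow and fast fibres, and poly-A RNA was sequenced. The labels do not say how the knockout was made, whether it was confined to muscle, or what the dose and duration of T3 and the age of the mice were. Nothing in them says whether every library stands for a separate animal, and p-values here cover only the spread among libraries, which may be technical. The series title places the study in muscle and thyroid thermogenesis, and this contrast asks how far the T3 response of soleus depended on the receptor.

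T3 acts on genes through nuclear receptors encoded by Thra and Thrb, of which the alpha 1 form predominates in skeletal muscle. A receptor without hormone can hold a target gene below its basal rate with corepressors, and a receptor with hormone recruits coactivators. Loss of a receptor can therefore alter a gene's level without hormone, its level with hormone, or both, and each changes the fold response. In muscle T3 is known to shift fibres toward fast myosins, to raise calcium pumping by SERCA and to raise energy expenditure.

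Foxo6os, Gm5420 and B930025P03Rik, all long noncoding transcripts, were called for the difference by edgeR, DESeq2 or both, and their promoters are shown here because the results turn on them. The sequences are RefSeq's on GRCm38.p6, from 250 bases before to 50 after the RefSeq start, with the 50 transcribed bases in capitals. Foxo6os lies at chr4:120290883-120291182 on the plus strand, Gm5420 at chr10:21690595-21690894 on the plus strand and B930025P03Rik at chr8:10882405-10882704 on the minus strand. For Foxo6os and Gm5420 the RefSeq start is not the start of the gene in the deposited table.
Foxo6os: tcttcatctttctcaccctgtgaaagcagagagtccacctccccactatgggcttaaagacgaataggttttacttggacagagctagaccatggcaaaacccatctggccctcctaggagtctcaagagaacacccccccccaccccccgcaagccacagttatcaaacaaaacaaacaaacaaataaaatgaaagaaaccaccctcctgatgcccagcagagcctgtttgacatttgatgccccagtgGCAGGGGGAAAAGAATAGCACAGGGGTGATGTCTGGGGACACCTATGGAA
Gm5420: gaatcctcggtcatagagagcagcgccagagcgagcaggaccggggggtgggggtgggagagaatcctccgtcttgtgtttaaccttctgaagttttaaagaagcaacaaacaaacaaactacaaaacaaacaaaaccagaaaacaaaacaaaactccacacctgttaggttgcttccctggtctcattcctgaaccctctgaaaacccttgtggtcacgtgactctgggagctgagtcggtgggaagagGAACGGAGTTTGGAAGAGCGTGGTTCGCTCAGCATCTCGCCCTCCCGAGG
B930025P03Rik: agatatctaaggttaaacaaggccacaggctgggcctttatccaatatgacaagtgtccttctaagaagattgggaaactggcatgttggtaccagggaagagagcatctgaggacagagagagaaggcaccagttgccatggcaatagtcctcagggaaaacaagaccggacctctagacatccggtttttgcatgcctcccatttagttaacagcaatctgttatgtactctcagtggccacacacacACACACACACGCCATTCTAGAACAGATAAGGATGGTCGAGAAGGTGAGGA
The receptor element AGGTCA, searched on both strands, was in none of the 3 windows, while 16.3% of 32851 RefSeq promoters of this length held it. A direct repeat of the element with 4 bases between the copies was in 5 of the 32851 and in none of the 3. Of the 24 genes leading the contrast (12 in each direction), 18 had a promoter in the table and 4 of these held the element in any of their promoters. A gene may have several RefSeq promoters, while the 16.3% counts single promoters, so these shares are not like for like.

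Total counts per library ran from 14542548 to 75766782, and every one of the 231 pairs of libraries differed by more than sampling noise. A set of 5 T3 libraries (WT T3 replicates 1, 3 and 5, KO T3 replicates 2 and 3) lay apart on principal components in an earlier analysis of these data. WT T3 replicate 5 lay farthest out on the first component, at 86.3. The other libraries of the set hold sample numbers 5, 9, 6 and 7, and all samples numbered 5 to 9 were T3 libraries. On the second component they ran from -48.0 to -41.9, while sample 8, WT T3 replicate 2, stood at -4.07. Mitochondrial genes took 23.1% to 29.5% of their counts, against 18.9% to 24.3% in WT vehicle and 15.6% to 22.7% in KO vehicle. In T3 libraries outside the set they took from 13.2% (KO T3 replicate 5) to 24.8% (WT T3 replicate 4). WT T3 replicate 5 had the lowest share of all libraries, 11.2%. A role of the numbering was not tested. Haemoglobin transcripts took 917 CPM (counts scaled by library size) in KO vehicle replicate 3, against 31.9 to 91.5 in the other KO vehicle libraries. The left-out range of a list's median is its lowest and highest value as each library was left out in turn.

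Thra, the targeted gene, was read in every library. Its levels were 82.1, 71.9, 73.0, 90.6 and 70.8 CPM in the WT vehicle libraries and 53.6, 48.3, 44.2 and 44.4 CPM in the KO vehicle libraries. With T3 they ran from 19.3 to 58.9 CPM in WT (median 44.6) and from 21.2 to 39.8 CPM in KO (median 34.3). KO and WT libraries did not overlap under vehicle and overlapped under T3. The gene count does not separate the alpha 1 transcript from others of the gene, and Thra has 263 exonic bases in common with Nr1d1, its opposite-strand neighbour. The strand setting of the counting is not given in the sources used here, so reads of such partners cannot be told apart. T3 lowered Thra in WT, by -0.86 ± 0.20 (log2 ± SE, adjusted p = 0.016 by edgeR with Benjamini-Hochberg adjustment), and its change in KO was -0.55 ± 0.20 (adjusted p = 0.188). The difference of the responses was 0.32, with a 95% interval from -0.28 to 0.91.

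Across the 15082 genes, 1 difference passed an adjusted p of 0.05 in edgeR, 0.00663% of the genes tested. An unadjusted p below 0.05 was reached by 371 genes (2.46%), of which 231 were positive (1.53% of genes tested) and 140 negative (0.928%). The positive share of these was 62.3% with TMM scaling, 52.3% with upper quartile scaling and 71.4% with total counts only, and it ran from 43.2% to 64.1% as single libraries were left out. If no gene differed, a share of about 0.05 of the genes tested would be expected to reach an unadjusted p below 0.05. The 2.46% is below that share, so such a p marks no gene as different by itself. The median difference of all genes was 0.02 and its median SE was 0.27. The 95% interval lay within 1 log2 unit of 0 for 10178 genes (67.5%), so that for these a difference of more than 2-fold in response lay outside the interval. It lay within 0.5 log2 units of 0 for 21.7%. For scale, T3 was called for 3.31% of genes in WT and 2.72% in KO, and genotype for 3.08% under vehicle and 5.57% under T3. T3 and vehicle libraries did not overlap for 3.80% of genes in WT and 4.66% in KO, and at a mean of at least 5 CPM for 8.13% in either genotype. KO and WT libraries did not overlap for 9.10% of genes under vehicle and 2.51% under T3.

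Foxo6os was the gene called. It is an antisense noncoding gene (ENSMUSG00000084929, chromosome 4, 120291350 to 120303892, mm10) that shares no exonic base with another gene of GENCODE M21. It lies upstream of Foxo6, with 4000 bases between its own start and the start of that minus-strand gene. Its levels were 26.0, 26.3, 18.5, 37.3 and 25.4 CPM in WT vehicle and 113 to 168 CPM (median 140.2) in WT T3. In KO vehicle they were 1.90, 2.08, 0.357 and 2.499 CPM, and in KO T3 33.7 to 68.7 CPM (median 50.9). KO vehicle stood below every other library and WT T3 above every other library, while WT vehicle and KO T3 overlapped between 33.7 and 37.3 CPM. By the fitted changes T3 raised it 5.29-fold in WT and 28.8-fold in KO. The log2 changes were 2.40 ± 0.25 and 4.85 ± 0.33, a difference of 2.44 ± 0.37 with a 95% interval from 1.67 to 3.22 (adjusted p = 0.0164 by edgeR with Benjamini-Hochberg adjustment).

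The sign of the Foxo6os difference depended on the scale. In CPM the gene gained 114.7 in WT and 47.7 in KO, a difference of -66.99 ± 9.38 (SE over libraries). The genotype gap was -3.96 ± 0.32 on the log2 scale under vehicle and -1.52 ± 0.22 under T3 (adjusted p = 2.01e-07 and 9.83e-05 by edgeR with Benjamini-Hochberg adjustment). Over the 22 fits that leave out 1 library the log2 difference ran from 2.08 to 2.66, and the adjusted p from 0.00218 to 0.0645. The call was lost without WT vehicle replicate 4 (2.27, adjusted p = 0.0584), WT T3 replicate 2 (2.36, adjusted p = 0.0502) or KO vehicle replicate 1 (2.498, adjusted p = 0.0645) in edgeR with Benjamini-Hochberg adjustment. It was also lost without the 5 T3 libraries that lay apart, at 2.43 and an adjusted p of 0.0998. KO vehicle replicate 3, the lowest library, held 10 reads of Foxo6os.

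**Figure D1:**
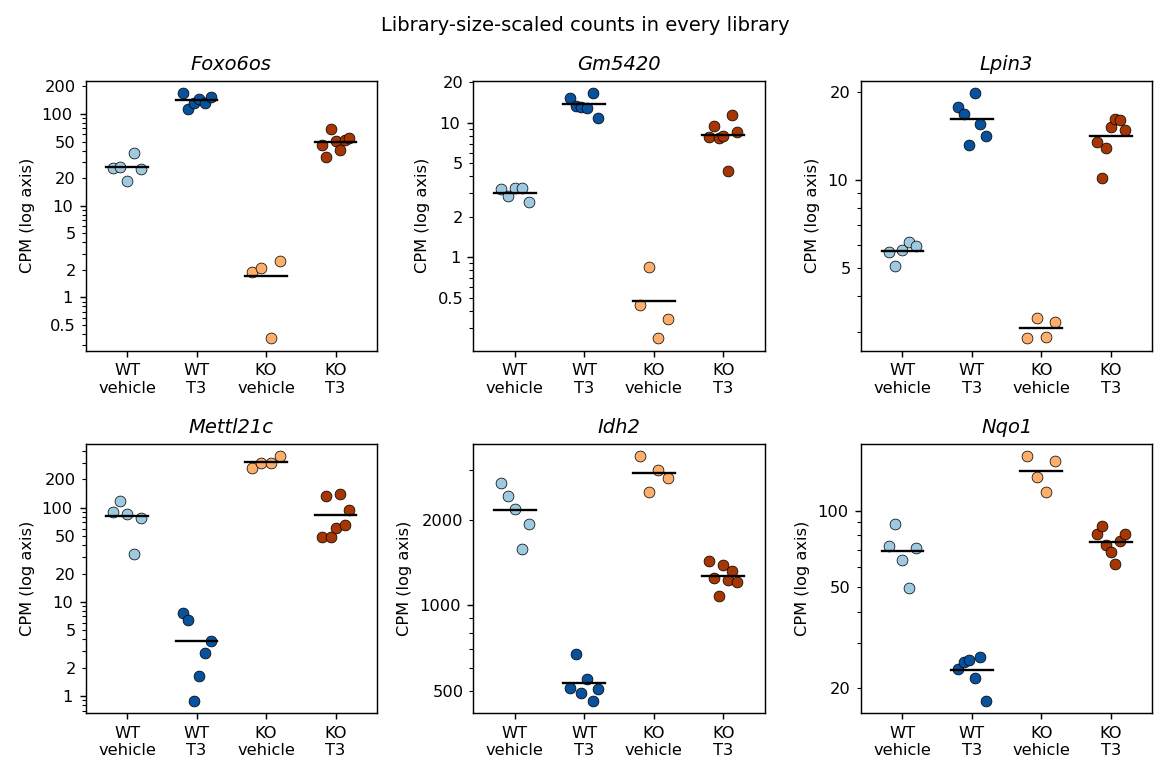
Levels of 6 genes in every library. Each point is 1 library, on a logarithmic axis of CPM, and each bar is the mean of its group (WT vehicle 5, WT T3 6, KO vehicle 4, KO T3 7 libraries). For Foxo6os, Gm5420 and Lpin3 the KO vehicle libraries lie lowest. For Mettl21c, Idh2 and Nqo1 the KO means lie above the WT means of the same treatment, and the step down with T3 is shorter in KO on this axis.

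Foxo6, the transcription factor gene next to Foxo6os, is encoded on the minus strand. It stood at 7.24, 3.35, 4.84, 12.0 and 6.48 CPM in WT vehicle and 7.12 to 13.6 CPM (median 10.2) in WT T3. In KO vehicle it stood at 1.54, 1.59, 0.4995 and 0.729 CPM and in KO T3 at 0.800 to 9.63 CPM (median 3.59). The vehicle groups did not overlap, whereas T3 and vehicle libraries overlapped in each genotype. Its difference was 1.34 ± 0.60 (unadjusted p = 0.0358, adjusted p = 1.00 by edgeR with Benjamini-Hochberg adjustment) and stayed positive in every fit run, with an unadjusted p below 0.05 in 16 of 22 fits that leave out 1 library. The other Foxo genes were spread around 0, with Foxo1 at -0.45 ± 0.23, Foxo3 at -0.20 and Foxo4 at 0.11.

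Gm5420 and B930025P03Rik, both annotated as intergenic noncoding RNA genes, fell outside the rule for naming genes and were chosen after their values were seen. Gm5420 (chromosome 10, 21686411 to 21707440) stood at 3.23, 2.86, 3.25, 3.25 and 2.56 CPM in WT vehicle and at 10.8 to 16.5 CPM in WT T3 (median 13.3). It stood at 0.440, 0.848, 0.250 and 0.347 CPM in KO vehicle and at 4.35 to 11.3 CPM in KO T3 (median 8.01). T3 and vehicle libraries did not overlap in either genotype, and KO and WT overlapped only under T3. Its difference was 1.93 ± 0.34 (adjusted p = 0.0568 by edgeR with Benjamini-Hochberg adjustment). DESeq2 called it, at an adjusted p of 0.000147, as did edgeR in 3 separate fits, without a filter on low counts, without KO vehicle replicate 2 and without KO T3 replicate 5. Its adjusted p in edgeR reached 0.424 as single libraries were left out. Over the other alternatives in edgeR, DESeq2 and voom it reached 0.533. The KO vehicle libraries held 12, 24, 7 and 10 reads of Gm5420.

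B930025P03Rik (chromosome 8, 10870422 to 10882454) went the other way. It stood at 0.0371, 0.0408, 0.102, 0.250 and 0.126 CPM in WT vehicle and at 10.3 to 13.6 CPM (median 12.9) in WT T3. In KO vehicle it stood at 0 CPM in 3 libraries and 0.174 CPM in the fourth, and in KO T3 at 0.140 to 0.686 CPM (median 0.209). Every WT T3 library was above every KO T3 library, and KO T3 reached 0.326 CPM on average against 12.3 in WT T3. The gain with T3 was 12.2 CPM in WT and 0.282 CPM in KO. The log2 change was 6.62 ± 0.46 in WT, and the gap of KO to WT under T3 was -5.35 ± 0.35 (adjusted p = 2.67e-09 and 2.59e-09 by edgeR with Benjamini-Hochberg adjustment).

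For B930025P03Rik the fold response of KO rested on few reads, since the 4 KO vehicle libraries held 5 reads in all, every one in replicate 4, and the 5 WT vehicle libraries held 19. The fitted difference of -3.97 ± 1.29 had an unadjusted p of 0.00532 and an adjusted p of 1.00 by edgeR with Benjamini-Hochberg adjustment. DESeq2 gave -3.93 with an adjusted p of 0.0129, and limma voom with quality weights -4.56 with an adjusted p of 0.0348. Without KO vehicle replicate 4, the fitted difference was -0.27, with all remaining KO vehicle libraries at 0, and it is then no measure of the fold.

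**Figure D2:**
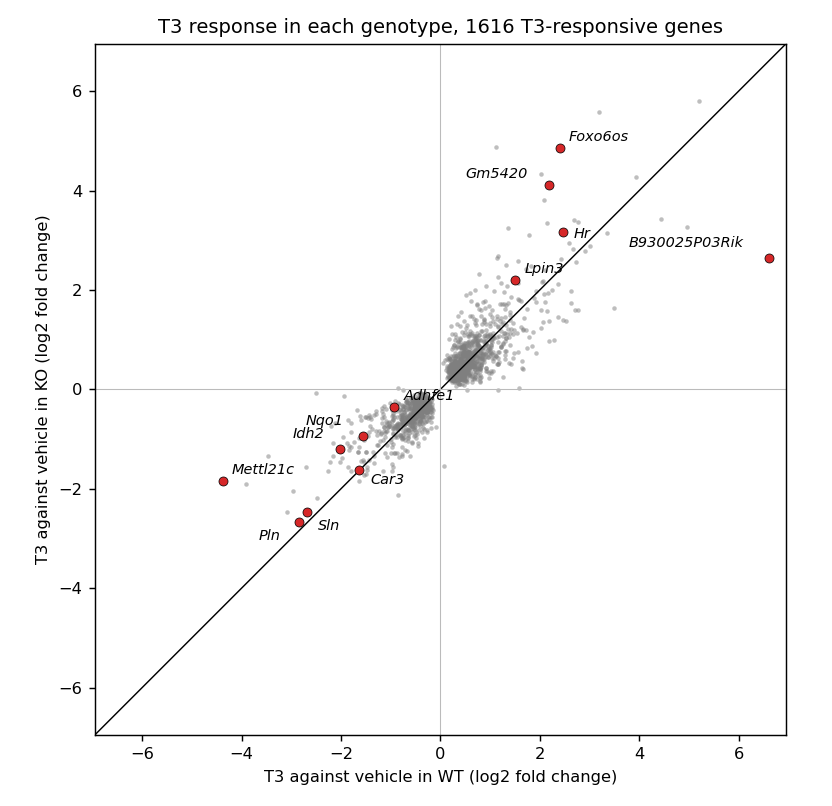
T3 response in WT (horizontal) and in KO (vertical), as log2 fold change against vehicle, for the 1616 genes with a mean response of both genotypes at an adjusted p below 0.05. Each grey point is 1 gene, red points are named, and the diagonal marks equal responses. Foxo6os lies above the diagonal at 2.40 and 4.85, B930025P03Rik below it at 6.62 and 2.65, and Sln, Pln and Car3 close to it.

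Among genes that T3 lowered in both genotypes, Mettl21c, Idh2, Nqo1 and Adhfe1 each fell by a smaller factor in KO. None of the 4 passed the adjusted threshold for the difference. Mettl21c, a lysine methyltransferase gene of muscle, stood at 90.5, 117, 85.5, 32.2 and 78.5 CPM in WT vehicle and 0.881 to 7.64 CPM (median 3.33) in WT T3. It stood at 264, 299, 301 and 354 CPM in KO vehicle and 48.8 to 139 CPM (median 66.1) in KO T3. No T3 library overlapped the vehicle libraries of its genotype, and no KO library overlapped the WT libraries of its treatment. By the fitted changes WT kept 4.81% of the vehicle level and KO kept 27.8%, a log2 difference of 2.53 ± 0.58 (adjusted p = 0.488 by edgeR with Benjamini-Hochberg adjustment).

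Idh2, the mitochondrial isocitrate dehydrogenase that yields NADPH, stood at 2708, 2421, 2185, 1576 and 1933 CPM in WT vehicle and 460 to 675 CPM (median 510.0) in WT T3. It stood at 3359, 2502, 2989 and 2815 CPM in KO vehicle and 1082 to 1429 CPM (median 1245) in KO T3. The genotypes overlapped under vehicle and stood apart under T3. By the fitted changes WT kept 24.6% and KO 43.7% of the vehicle level, a log2 difference of 0.83 ± 0.19 (adjusted p = 0.488 by edgeR with Benjamini-Hochberg adjustment). In CPM the losses were close to equal, with changes of -1631 in WT and -1643 in KO.

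Nqo1, a quinone reductase and target of the antioxidant factor Nrf2, stood at 72.6, 88.4, 64.2, 49.6 and 71.2 CPM in WT vehicle and 17.8 to 26.6 CPM (median 24.5) in WT T3. It stood at 165, 136, 119 and 158 CPM in KO vehicle and 61.8 to 87.4 CPM (median 75.8) in KO T3. KO T3 thus reached the range of WT vehicle and did not fall to that of WT T3. Its difference was 0.62 ± 0.19 (unadjusted p = 0.00343 by edgeR), and the CPM change was -45.7 in WT and -68.5 in KO.

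Adhfe1, a mitochondrial transhydrogenase of hydroxyacids, stood at 34.0 to 43.1 CPM in WT vehicle and 18.9 to 23.1 CPM in WT T3. Its KO vehicle libraries stood at 41.4 to 48.1 CPM and its KO T3 libraries at 31.6 to 40.0 CPM. Of these 4 genes it alone lost less in KO on both scales, with CPM changes of -18.6 in WT and -9.75 in KO, with a log2 difference of 0.57 ± 0.13 (adjusted p = 0.488 by edgeR with Benjamini-Hochberg adjustment). Over the 22 edgeR fits that leave out 1 library, the unadjusted p of Mettl21c, Idh2, Nqo1 and Adhfe1 remained below 0.05. Mettl21c, Idh2 and Adhfe1 were named by their small p in these same libraries. Nqo1 came from a panel chosen with earlier results of these data known. The left-out fits are therefore no independent support.

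A further set of leading positive genes had a lower KO level under vehicle and KO levels that overlapped those of WT under T3. Lpin3, a phosphatidate phosphatase gene, stood at 5.06 to 6.14 CPM in WT vehicle and 2.86 to 3.35 CPM in KO vehicle. With T3 it stood at 13.1 to 19.8 CPM in WT and 10.1 to 16.2 CPM in KO. The genotypes did not overlap under vehicle and overlapped under T3. The gains of 10.5 and 11.0 CPM were close, while the log2 changes of 1.51 ± 0.13 and 2.19 ± 0.14 differed by 0.68 ± 0.18 (unadjusted p = 0.00115 by edgeR).

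Rp1, a microtubule-binding protein gene best known from photoreceptors, rose by 0.81 in WT and 1.603 in KO on the log2 scale, and its difference was 0.79 ± 0.23. Tnfaip2, a gene induced by tumour necrosis factor, changed by -0.11 ± 0.12 in WT and rose by 0.61 ± 0.13 in KO, a difference of 0.72 ± 0.17. The glutamine transporter gene Slc38a3 (0.61 ± 0.18) and the growth factor receptor gene Fgfr1 (0.60 ± 0.18) had the same pattern, with a called rise in KO and a WT change that did not pass the test. So did 3 members of the gene lists: Rcan1, an inhibitor of calcineurin, at 0.75 ± 0.25, Txnrd1, a thioredoxin reductase, at 0.47 ± 0.16, and Mlxipl, which encodes the carbohydrate response factor ChREBP, at 0.51 ± 0.19. All 3 had an unadjusted p below 0.05 and none passed the adjusted threshold of edgeR's test.

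The remaining leading positive genes were Nckap5 (1.70 ± 0.45), the zinc finger gene Zfp385b (0.89 ± 0.25) and Mical2, a monooxygenase that acts on actin (0.73 ± 0.21). Nckap5 and Mical2 fell in WT, by -1.32 ± 0.31 and -0.75 ± 0.14, and their KO changes were 0.38 ± 0.32 and -0.02 ± 0.15. In Mical2, WT vehicle replicate 3 stood apart at 49.2 CPM. For Nckap5, Zfp385b and Mical2 the difference in CPM had the same sign as that in log2. The signs were also the same for Adhfe1, Lpin3, Rp1, Tnfaip2, Slc38a3 and Fgfr1, and opposite for Foxo6os, Idh2 and Mettl21c.

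The 12 leading negative genes, which rose less or fell more in KO, had differences from -0.47 to -3.31. Fgf6, a fibroblast growth factor of muscle, rose by 1.16 ± 0.26 in WT and changed by -0.02 ± 0.27 in KO, a difference of -1.18 ± 0.37. Srgn, the core protein of the proteoglycan serglycin, and Abcg2, an efflux transporter of small vessels and side-population cells, rose in WT by 0.53 ± 0.12 and 0.63 ± 0.11. Their KO changes were -0.02 ± 0.12 and 0.14 ± 0.12, and the differences -0.54 ± 0.17 and -0.49 ± 0.16. WT T3 stood above KO T3 without overlap for Fgf6, Srgn and Abcg2, and the vehicle groups overlapped. Ikbip fell in KO by -0.75 ± 0.15 and its WT change was -0.08 ± 0.15, a difference of -0.67 ± 0.22 whose adjusted p by edgeR with Benjamini-Hochberg adjustment was 1.00. Rassf9 (-1.01 ± 0.30), the GTPase gene Rab40b (-0.72 ± 0.22), Myct1 (-0.63 ± 0.21), the endothelial lectin gene Clec14a (-0.60 ± 0.21) and the ubiquitin ligase gene Siah1a (-0.47 ± 0.16) made up the rest outside the erythroid genes.

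Hbb-bt and Hbb-bs, beta globin genes, and Alas2, which starts haem synthesis in red cell precursors, also led the negative side, at -3.31 ± 1.14, -2.71 ± 1.00 and -2.94 ± 1.02. All 5 erythroid markers had an unadjusted p below 0.05 and a median of -2.71. Their summed level was 982 CPM in KO vehicle replicate 3, against a KO vehicle median of 69.9 CPM. Without that library Hbb-bt was -0.58, Alas2 -0.16 and Hbb-bs -0.31, and the list median was -0.57. Clec14a was -0.37 without it. Without it and WT T3 replicate 5, a pair chosen after seeing the data, the list median was -0.07 with no member at an unadjusted p below 0.05. Globin genes are near-identical copies, as are Siah1a and its relatives, so their counts may be split between copies. In bulk tissue, fewer cells of a type and less RNA per cell cannot be told apart.

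To ask whether T3 responses were larger or smaller in KO as a whole, genes were chosen by the mean T3 response of both genotypes, weighted by precision. That mean is uncorrelated with the difference where libraries spread alike, so the choice does not favour either genotype. It gave 1616 T3-responsive genes (10.7% of genes tested), 950 raised and 666 lowered, and 1612 of them had the same sign in both genotypes. Of all 15082 genes tested, 10544 had the same sign. Opposite responses average toward 0 and are seldom chosen, so the count of 1612 was largely set by the choice. Of the 1616, the KO response was the smaller in 850 and the larger in 766, with a median difference along the response of -0.01. The KO response was thus the smaller in 52.6% of them, beside 54.8% of all genes tested. The median log2 change of raised genes was 0.52 in WT and 0.55 in KO, and that of lowered genes -0.53 in WT and -0.47 in KO. These values describe the genes, which are not independent of each other, and no test was made over them.

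Among the strongest responses, of 176 genes raised at least 2-fold, 79 rose by a smaller factor in KO and 97 by a larger one. Their median along the response was 0.10, and -0.12 without WT vehicle replicate 4. In CPM the rise was smaller in KO in 127 of the 176. Of 93 genes lowered at least 2-fold, 68 fell by a smaller factor in KO and 25 by a larger one, with a median of -0.34. An unadjusted p below 0.05 was reached by 10 of the 68 and none of the 25 lowered genes. Among the raised genes it was reached by 14 of the 97 that rose by a larger factor in KO and 3 of the 79 that rose by a smaller one. These are 10.8% of the lowered and 9.66% of the raised genes, beside 2.46% of all genes. Over the alternatives the median of the lowered genes ran from -0.45 to -0.21. By the fitted changes the lowered genes kept a median 34.8% of their vehicle level in WT and 42.0% in KO. KO vehicle was above WT vehicle in 75 of the 93, and in CPM the drop was smaller in KO in only 30 of them.

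**Figure D3:**
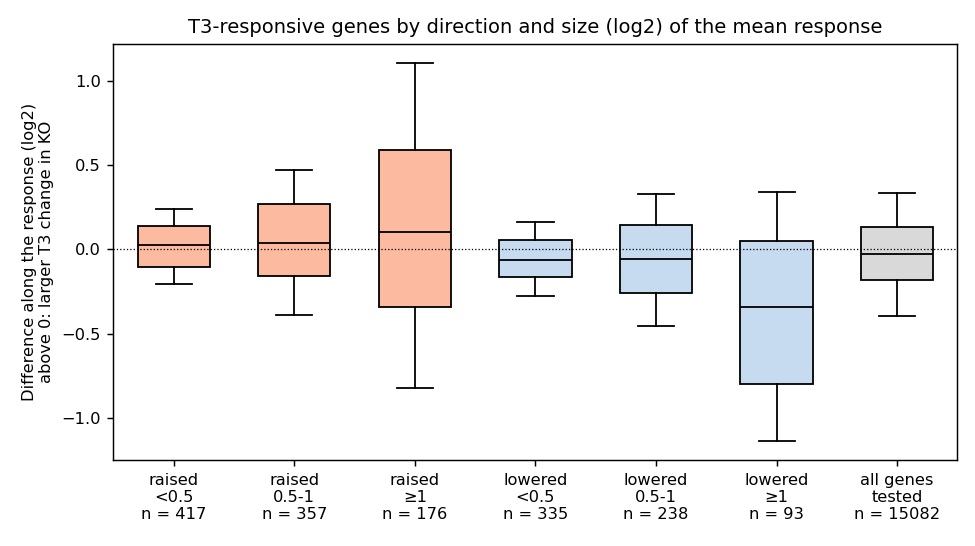
Difference of the T3 responses along the direction of the response, by direction and size (log2) of the mean response. Boxes span the quartiles with the median as a line, whiskers the 10th to 90th percentiles. Values above 0 mean a larger log2 change in KO. The box of genes lowered by at least 1 log2 unit has its median at -0.34, that of genes raised by as much at 0.10, and that of all genes at -0.03.

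The same contrast asks whether T3 narrowed or widened the standing gap between genotypes. By the mean gap over both treatments, 1810 genes (12.0%) differed between genotypes, and the gap had the same sign under vehicle and T3 in 1808. It had the same sign in 10413 of all 15082 genes tested, and a choice by the mean gap seldom picks gaps of opposite sign. On the log2 scale the gap of the 1810 genes was narrower under T3 in 892 and wider in 918, with a median of 0.00 along the gap. Without KO vehicle replicate 1 it was narrower in 1085 of 1856. With total counts only, 3021 genes differed and the gap was narrower in 1358 of them. Of 223 genes at least 2-fold higher in KO, the gap was wider under T3 in 153 and narrower in 70, with a median of 0.23. Of 149 genes at least 2-fold lower in KO, it was narrower in 86 and wider in 63, with a median of -0.13. That median was 0.01 without KO vehicle replicate 3 and 0.01 without WT vehicle replicate 4. In CPM the balance was the other way round, with the gap narrower in 139 of the 223 and in 44 of the 149. On the log2 scale the gap narrowed in Foxo6os and Gm5420, among the genes at least 2-fold lower in KO. On the same scale it widened in Mettl21c and Nqo1, among those at least 2-fold higher.

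The genes of thyroid hormone action showed no called difference. Of 17 receptors, coregulators, deiodinases and transporters tested, none had an unadjusted p below 0.05, and their median was 0.07, beside 0.02 for all genes. Its left-out range was -0.03 (without KO vehicle replicate 3) to 0.12. Thrb, the other receptor gene, stood at 0.10 ± 0.25. Dio3, the deiodinase that inactivates T3, rose by 3.34 ± 0.53 in WT and 3.14 ± 0.58 in KO, although its mean never passed 0.580 CPM in a group. Of 13 textbook T3 targets, none had an unadjusted p below 0.05 and their median was 0.17, with a left-out range of 0.03 (without WT vehicle replicate 4) to 0.18. Klf9, a direct target in many tissues, rose in KO by 0.51 ± 0.13 (adjusted p = 0.0298 by edgeR with Benjamini-Hochberg adjustment) and its WT change was 0.33 ± 0.12 (adjusted p = 0.149). The difference had an interval from -0.18 to 0.54.

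Hr, a corepressor gene used as a T3 marker, stood at 10.7, 12.9, 16.5, 59.7 and 17.6 CPM in WT vehicle and 72.9 to 184 CPM (median 128) in WT T3. It stood at 2.71, 5.23, 3.57 and 3.82 CPM in KO vehicle and 17.0 to 55.2 CPM (median 36.4) in KO T3. The genotypes did not overlap under either treatment, and WT vehicle replicate 4 stood far above its group. The difference of 0.70 ± 0.53 became -0.03 without that library. Gpd2, the mitochondrial glycerol phosphate dehydrogenase, went from 0.66 ± 0.38 to 0.14 without it, and its level there was 50.9 CPM. Ucp3, an uncoupling protein gene, stood at -0.31 ± 0.44 and Ppargc1a, a coactivator of mitochondrial genes, at 0.00 ± 0.35, and both changed sign between the alternatives.

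**Figure D4:**
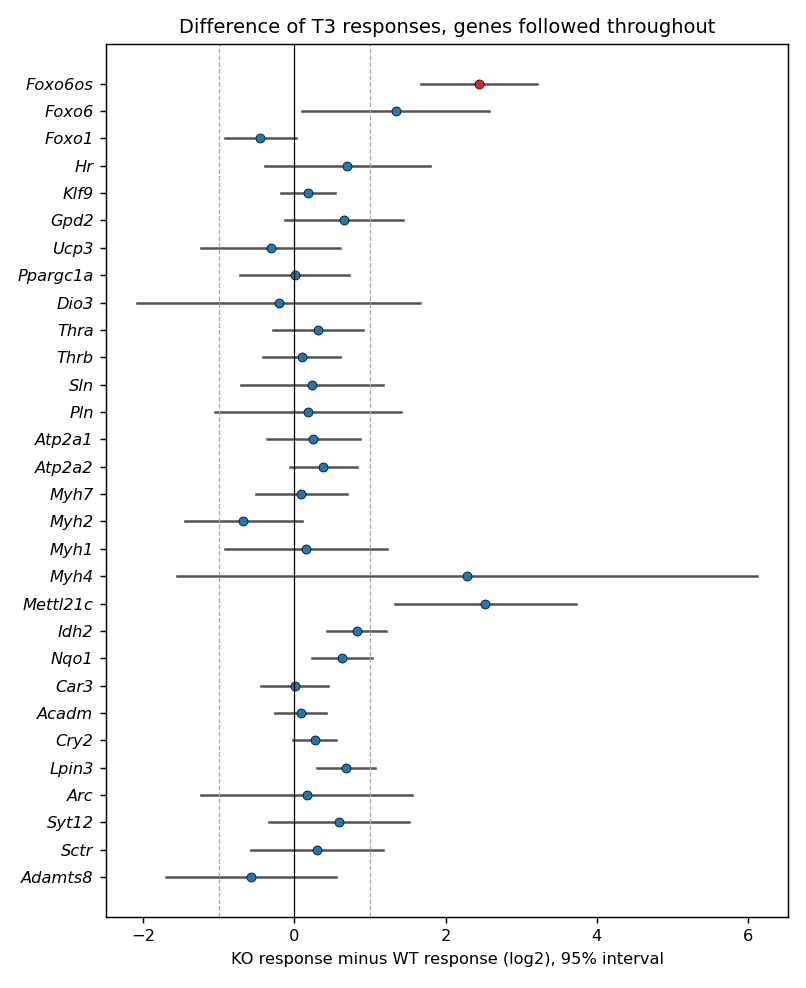
Difference of the T3 responses, KO minus WT, for the 30 genes followed whatever their values. Points are log2 differences, bars are 95% intervals, dashed lines mark 1 log2 unit, and red marks an adjusted p below 0.05 by edgeR. Foxo6os alone is red, at 2.44. The interval of Car3 spans -0.44 to 0.45, and that of Myh4 spans -1.55 to 6.13.

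No gene of the calcium handling or contractile lists reached an unadjusted p below 0.05. The 95% interval lay within 1 log2 unit of 0 for 14 of 17 calcium handling genes and 11 of 14 slow fibre genes. It did so for 7 of 15 fast fibre genes and for 67.5% of all genes. Sln and Pln encode sarcolipin and phospholamban, the peptide inhibitors of SERCA, and T3 lowered them in both genotypes. Sln fell by -2.69 ± 0.33 in WT and -2.46 ± 0.32 in KO, a difference of 0.23 with an interval from -0.71 to 1.17. Pln fell by -2.85 ± 0.45 and -2.67 ± 0.41, a difference of 0.18 ± 0.60, and 1785 of its exonic bases are shared with genes on the opposite strand. All 17 members of the SERCA and calcium handling list had positive differences, with a median of 0.18 and none at an unadjusted p below 0.05. Without WT T3 replicate 5, 13 of the 17 were positive, and the left-out range of the median was 0.10 (without WT vehicle replicate 4) to 0.22. The pump genes Atp2a1 and Atp2a2 stood at 0.25 ± 0.30 and 0.38 ± 0.21.

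Among myosin heavy chains, the slow Myh7 stood at 0.09 ± 0.29, the fast Myh1 at 0.15 ± 0.52, Myh2 at -0.68 ± 0.38 and Myh4 at 2.29 ± 1.86. Myh4 was at 8956 CPM in WT vehicle replicate 4, against a WT vehicle median of 409 CPM. Of the 14 slow fibre genes 12 were positive, with a median of 0.19 (left-out range 0.10, without WT T3 replicate 3, to 0.29, without WT T3 replicate 5). Of the 15 fast fibre genes 7 were positive, with a median of -0.02. The left-out range of the fast fibre median was -0.29 (without WT vehicle replicate 4) to 0.21 (without KO vehicle replicate 1). The list of fibre type and myogenic regulators, with a median of 0.12 (-0.02 without WT T3 replicate 5), had 2 of 20 members at an unadjusted p below 0.05, both positive: Rcan1 and the myogenic factor gene Myf6 (0.35 ± 0.17). Car3, the carbonic anhydrase of slow fibres, fell by -1.63 ± 0.15 in WT and -1.62 ± 0.15 in KO, with a difference of 0.00 ± 0.22.

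In the lists of nuclear respiratory chain genes nearly all members had the same sign, which did not hold without WT T3 replicate 5. Complex I nuclear subunits were negative in 36 of 37, with a median of -0.24, and nuclear subunits of complexes III to V in 35 of 37, also with a median of -0.24. No member had an unadjusted p below 0.05. Without WT T3 replicate 5 the medians were -0.02 and -0.03, and 15 of 37 and 16 of 37 were positive. Of 11 mitochondrially encoded genes, 7 were negative, with a median of -0.04 whose left-out range was -0.23 (without WT T3 replicate 5) to 0.15 (without KO vehicle replicate 1). Among them mt-Nd3 alone had an unadjusted p below 0.05, at -0.78 ± 0.34. Regulators of mitochondrial biogenesis were positive in 13 of 14 with a median of 0.19, and in 9 of 14 with a median of 0.10 without WT T3 replicate 5. The TCA cycle list had a median of 0.02, with a left-out range of -0.07 (without KO vehicle replicate 3) to 0.10, with Idh2 its only member at an unadjusted p below 0.05.

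Fuel metabolism lists had medians of -0.05 for fatty acid uptake and oxidation (22 genes), 0.00 for glycolysis (20 genes) and 0.02 for lipogenesis and triglyceride turnover (24 genes). Their left-out ranges were -0.15 to -0.01, -0.11 to 0.08 and -0.02 to 0.06. Acadm, which starts the oxidation of medium-chain fatty acids, fell by -0.74 ± 0.11 in WT and -0.66 ± 0.12 in KO, with a difference of 0.08 and an interval from -0.25 to 0.42. In creatine metabolism the transporter gene Slc6a8 stood at 0.29 ± 0.13 and the synthesis gene Gamt at -0.85 ± 0.40, both with an unadjusted p below 0.05, in a list of 12 uncoupling, shuttle and creatine genes of which 5 were positive. The median of that list was 0.00, with a left-out range of -0.17 (without WT vehicle replicate 4) to 0.13 (without WT T3 replicate 5). Antioxidant genes and carbonic anhydrases were positive in 13 of 15, with a median of 0.35, and Nqo1 and Txnrd1 reached an unadjusted p below 0.05. The antioxidant median was 0.16 without KO T3 replicate 2 and 0.14 without the 5 T3 libraries that lay apart.

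Clock genes were positive in 16 of 19, with a median of 0.30, and immediate early genes in 15 of 16, with a median of 0.44, while 54.3% of all genes were positive. Neither list had a member at an unadjusted p below 0.05. Cry2, a clock repressor, fell by -0.79 ± 0.10 in WT and -0.52 ± 0.10 in KO, a difference of 0.27 ± 0.14. Arc, an immediate early gene, rose by 2.66 ± 0.46 and 2.82 ± 0.57. The immediate early median was 0.10 without WT vehicle replicate 1, and the clock median 0.14 without KO vehicle replicate 3. Pump and ion channel genes were positive in 13 of 14 (median 0.24), atrophy genes in 8 of 12 (0.18), heat shock genes in 13 of 19 (0.09) and neuromuscular junction genes in 5 of 14 (-0.04). Without KO vehicle replicate 3 the pump and channel median was 0.13, without WT T3 replicate 5 the atrophy median was 0.08, and without KO vehicle replicate 4 the heat shock median was 0.00. The neuromuscular median had a left-out range of -0.15 (without WT vehicle replicate 4) to 0.03 (without KO vehicle replicate 1). Interferon-stimulated genes were negative in 12 of 15, with a median of -0.35, which was -0.07 without WT T3 replicate 5 and 0.02 without the 5 T3 libraries. Among them Gbp2 alone had an unadjusted p below 0.05, at -0.68 ± 0.31.

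**Figure D5:**
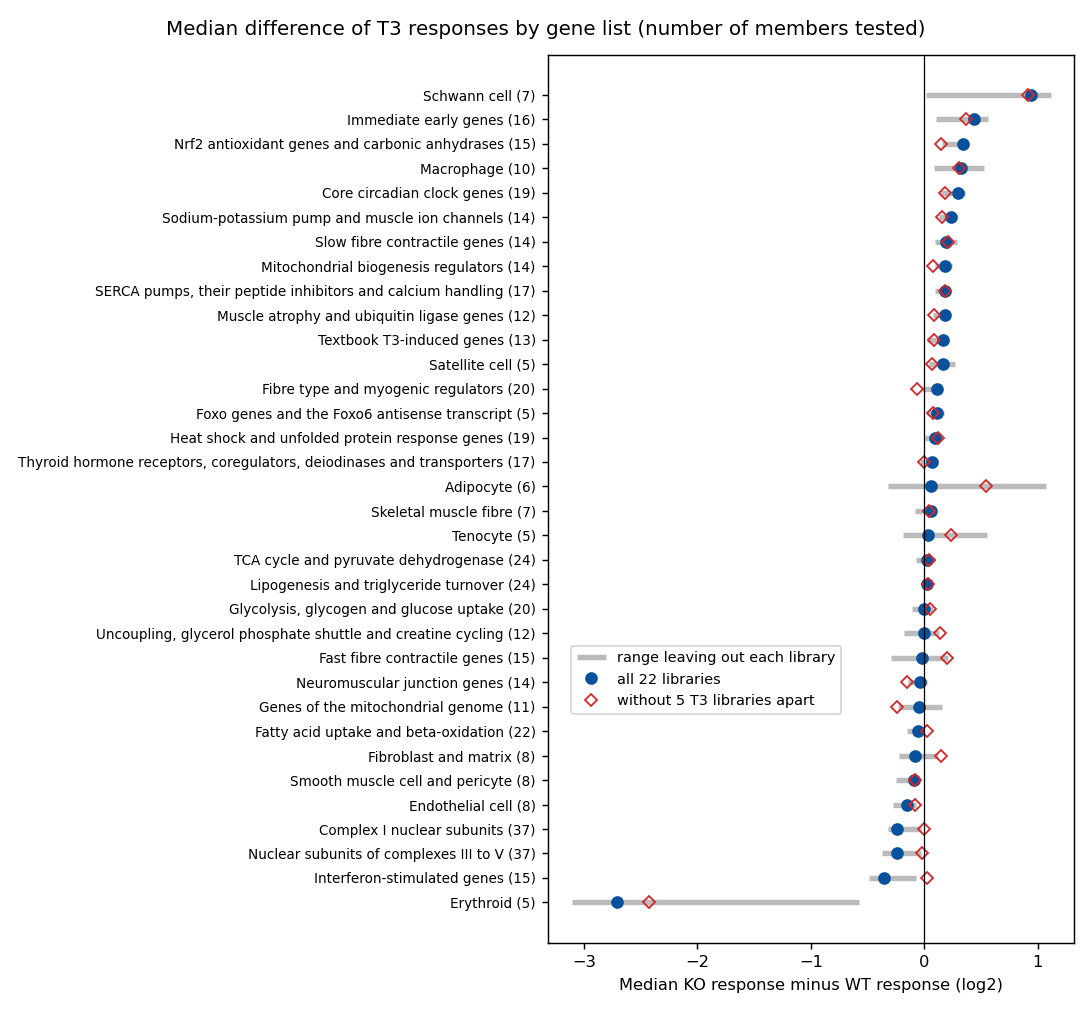
Median difference of the T3 responses (log2, KO minus WT) for each gene list with at least 5 members tested. Filled points are medians over the 22 libraries, open diamonds the medians without the 5 T3 libraries that lay apart, and grey bars the range when each library is left out. Erythroid markers run from -3.10 to -0.57 and Schwann cell markers from 0.02 to 1.11 as single libraries are left out.

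Markers of other cell types moved with single libraries. Schwann cell markers were positive in 7 of 7, with a median of 0.94, and only Mbp, a myelin protein gene, had an unadjusted p below 0.05 (1.29 ± 0.58). Their summed level was 407 CPM in WT vehicle replicate 3, against a WT vehicle median of 88.7 CPM, and the list median was 0.02 without that library. Macrophage markers were positive in 9 of 10, with a median of 0.33 and a left-out range of 0.09 (without KO T3 replicate 3) to 0.52 (without WT T3 replicate 5). Without KO vehicle replicate 3 and WT T3 replicate 5, a pair chosen after seeing the data, the macrophage median was 0.72, its highest over the alternatives. In that edgeR fit 4 members had an unadjusted p below 0.05, as had 258 positive and 286 negative genes of all 15236 tested. No macrophage marker had one with all 22 libraries, and 1 had one without the 5 T3 libraries that lay apart. Endothelial markers were negative in 6 of 8, with a median of -0.16 and a left-out range of -0.28 (without KO T3 replicate 4) to -0.07 (without KO vehicle replicate 3). Vwf, the endothelial von Willebrand factor gene, stood at -0.90 ± 0.34 (unadjusted p = 0.0144 by edgeR), and lost an unadjusted p below 0.05 without KO vehicle replicate 3. The adipocyte median was 0.06, with a left-out range of -0.32 (without KO T3 replicate 5) to 1.07 (without KO vehicle replicate 2). The tenocyte median was 0.04, with a left-out range of -0.19 (without KO vehicle replicate 1) to 0.56 (without WT T3 replicate 5). Fibroblast markers had a median of -0.08 (left-out range -0.22, without WT T3 replicate 2, to 0.12, without KO vehicle replicate 2) and smooth muscle markers of -0.09 (-0.25, without KO vehicle replicate 3, to -0.04). Satellite cell markers had a median of 0.17 (0.04, without WT T3 replicate 3, to 0.27) and muscle fibre markers of 0.06 (-0.09, without WT vehicle replicate 4, to 0.09). Muscle fibre markers summed to 37433 to 68647 CPM over the libraries, while no T cell marker of 5 passed the filter on low counts and 2 of 7 B cell markers did. The B cell median was -0.49, with a left-out range of -1.17 (without WT vehicle replicate 4) to 0.10 (without WT T3 replicate 5). The part of these cells in the gene differences above was not tested.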

How the data were processed

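Poly-A RNA of 22 soleus libraries was prepared with the TruSeq Stranded kit, per the labels' protocols. The authors deposited raw counts per gene and a gene length in base pairs. STAR 2.7.3a, featureCounts 1.6.4, edgeR 3.26.8 and build mm10 are named per the submitters' processing notes. For the annotation release and the strand setting: not given in the sources used here. Of 55487 gene IDs, 55394 stand in GENCODE M21, which gave symbols.

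Genes were kept by filterByExpr (minimum count 10). All 22 libraries entered a single fit with a mean per group, TMM scaling and the quasi-likelihood test of edgeR 4.0.16 in R 4.3.3, without covariates. P-values were adjusted by Benjamini-Hochberg over 15082 genes and called below 0.05. SEs are the fitted change over the root of F, and intervals cover 95%. CPM values use TMM-scaled library sizes, and their spread covers samples only. Alternatives used DESeq2 1.42.0, limma 3.58.1 voom, sva 3.50.0, other scalings and filters, and left-out libraries. Steps were tested on simulated data, and figures drawn with matplotlib.

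Named genes were the 12 smallest p in each direction at a mean of at least 5 CPM, without unnamed gene models, up to 2 members of each list at p below 0.05, and a panel of 30. The members, 24 pathway lists, 12 marker lists and panel were chosen with earlier results of these data known.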

Additional observations from a re-analysis of the deposited data

Results flagged for a closer look

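Foxo6os differed between genotypes in its T3 response by the test of the difference itself, at a log2 difference of 2.44, larger in KO.

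Over 62 genes and the 4 groups, 248 sets of libraries were searched for a library that stood apart from its group, and 27 were found. Chance alone marks about 1 in 20. KO vehicle replicate 3 stood apart in Hbb-bs (699 CPM), Hbb-bt (94.9 CPM), Alas2 (64.8 CPM), Clec14a (15.1 CPM), Slc38a3 (66.6 CPM) and Thrb (20.1 CPM, below its group). WT T3 replicate 5 stood apart in Ikbip (11.1 CPM), Pln (1.68 CPM), Sctr (32.1 CPM) and Gamt (5.34 CPM). WT vehicle replicate 4 stood above its group in Hr (59.7 CPM), Gpd2 (50.9 CPM) and Myh4 (8956 CPM), and WT vehicle replicate 3 in Mical2 (49.2 CPM), Alas2 (5.39 CPM) and Mbp (127 CPM).

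Single genes stood apart in other libraries. These were Myf6 in WT vehicle replicate 1 (82.6 CPM) and KO T3 replicate 2 (91.7 CPM), Syt12 in KO T3 replicate 2 (17.6 CPM), and Myh1 in WT T3 replicate 2 (10332 CPM). In KO vehicle they were Slc6a8 in replicate 1 (178 CPM), Myh4 in replicate 2 (1974 CPM) and B930025P03Rik in replicate 4 (0.174 CPM). In KO T3 they were Mlxipl in replicate 1 (90.99 CPM), Slc38a3 in replicate 3 (71.96 CPM, below its group), Foxo6 in replicate 4 (9.63 CPM) and Mbp in replicate 6 (49.9 CPM).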

How the results depend on the processing

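No paired analysis was possible because the labels number the samples in 1 series and give the groups no shared replicate numbers. The difference was called for 1 gene, and for 2 without a filter on low counts, 3 with DESeq2, 2 with voom quality weights and 0 in edgeR without the 5 T3 libraries that lay apart, where 281 positive and 335 negative genes had an unadjusted p below 0.05. Leaving out single libraries gave 0 to 2 genes. Foxo6os ran from 2.08 to 2.66 over these, was 2.43 without the 5 libraries, and was -66.99 on the CPM scale. Of 62 named genes, 52 kept their sign in 13 other alternatives and 22 left-out libraries. The other 10 changed sign in at least 1 of them, and none of the 10 had an unadjusted p below 0.05 with all libraries. Ppargc1a was -0.016 (RLE scaling), -0.014 (upper quartile), -0.023 (no filter), -0.015 (DESeq2), -0.23 (voom quality weights), -0.30 (without the 5) and -0.38 (without KO vehicle 3 and WT T3 5, chosen after seeing the data). Car3 was -0.0103, -0.0211, -0.0122 and -0.0103 in the first 4 of these, -0.00098 with a 1 CPM filter, -0.0201 with voom, and -0.0144 and -0.0721 in the last pair. Voom and voom with quality weights gave Pln -0.20 and -0.16, and Myh1 -0.26 and -0.10. Quality weights gave Thrb -0.0012 and Ucp3 0.21. A surrogate variable gave Myh1 -0.21, Myh7 -0.0799 and Arc -0.0808. Without the 5 libraries, Myh7 was -0.14 and Arc -0.15. Without KO vehicle 3 and WT T3 5, Thrb was -0.22, Ucp3 0.23, Myh7 -0.0021 and Acadm -0.0556. Over left-out libraries Thrb ran from -0.12 to 0.17, Hr from -0.0312 to 0.85, Ucp3 from -0.64 to 0.24, Ppargc1a from -0.24 to 0.13 and Pln from -0.19 to 0.43. Myh7 ran from -0.0306 to 0.25, Myh1 from -0.18 to 0.32, Car3 from -0.10 to 0.10, Arc from -0.36 to 0.55 and Acadm from -0.0072 to 0.14. With total counts only, 3021 genes differed between genotypes in place of 1810, and 335 in place of 223 were at least 2-fold higher in KO. At an adjusted p below 0.01 (edgeR, Benjamini-Hochberg), 937 differed between genotypes and 746 in place of 1616 responded to T3, 113 in place of 176 of them raised at least 2-fold. The cause was not tested. With a median SE of 0.27, most differences below 0.5 log2 units were not detectable, and far larger ones also missed the adjusted threshold. Mettl21c at 2.53 ± 0.58 and Idh2 at 0.83 ± 0.19 were not called.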
